A study of Mus musculus with 21 samples.

Results

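The 10 genes described here encode the receptors and surface proteins by which plasma cells are recognised and through which they receive survival signals. They are the APRIL and BAFF receptors *Tnfrsf17* (BCMA), *Tnfrsf13b* (TACI) and *Tnfrsf13c* (BAFF receptor), the marker *Sdc1* (syndecan-1, CD138), the co-receptors *Slamf7*, *Cd28* and *Cd93*, the ectoenzyme *Cd38*, and the IL-6 receptor chains *Il6ra* and *Il6st* (gp130). They were chosen by name, and all 10 were found once each among the 53801 genes counted and passed the filter of a total of at least 10 counts, as did 20256 genes in all. RNA was sequenced from IgA+ plasma cells (PCs) sort-purified from the small intestine of 21 C57BL/6 mice, 1 library per mouse. The control mice (Mb1Cre-/- x Arntlfl/fl) carried the floxed *Arntl* alleles without the Cre recombinase, and 6 were sampled at zeitgeber time 0 (ZT0, lights on) and 6 at ZT12. The knockout mice (Mb1Cre+/- x Arntlfl/fl) carried the same floxed alleles together with Cre driven from the Mb1 locus, which is *Cd79a*, and 4 were sampled at ZT0 and 5 at ZT12. In these mice the core clock gene *Arntl* (Bmal1) is deleted throughout the B cell lineage from early B cells on, and not only in PCs. The age of the mice is not given in the sources used here. Titles gave the genotypes used here, because 8 of the 9 knockout samples carry the control genotype in another field. The comparisons address whether expression in PCs differs with time of day and whether that difference depends on the knockout genotype. Deletion of *Arntl*, the presence of Cre and the altered *Cd79a* locus come together in that genotype and cannot be told apart here.

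PCs do not divide and live for as long as their surroundings keep them alive. APRIL and BAFF, made by stromal, epithelial and myeloid cells, act on them through BCMA and TACI, which signal through TRAF adaptors and sustain proteins such as *Mcl1*, while the BAFF receptor serves mainly the survival of B cells before they become PCs. The heparan sulfate chains of syndecan-1 hold APRIL at the cell surface, and contact through CD28 and IL-6 received through gp130 are further survival inputs.

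Totals ran from 14471018 to 22785835 counts per library, and immunoglobulin genes took 51.5% to 63.6% of them. Values are CPM, counts scaled to the TMM-normalized size of each library. *Arntl* ranged from 6.83 to 8.36 CPM in control mice at ZT0 and from 4.08 to 6.47 CPM in knockout mice at ZT0. Of these knockout mice, replicate 3 had the 6.47 CPM, and replicates 1, 2 and 4 had 4.51, 4.08 and 4.42 CPM. The genotypes overlapped at ZT12 (4.00 to 5.56 and 3.11 to 4.93 CPM). These counts cover the whole gene, the floxed part and the remainder alike. *Cd79a*, the locus that carries Cre, was at least 386 CPM in control mice and at most 276 CPM in knockout mice. The PC markers were abundant (*Jchain* 48830 CPM, *Xbp1* 2197 CPM on average), and markers of other cells were low but not absent. Epithelial markers summed to 797 CPM in control ZT12 replicate 5 and 474 CPM in knockout ZT12 replicate 5, against 55.0 to 231 CPM in the other libraries. *Epcam* had the highest mean of this list (67.25 CPM) and was at least 47.8 CPM in every library. *Krt20*, *Fabp1*, *Fabp2*, *Alpi* and *Cdh1* were at 0 CPM in some. Knockout ZT0 replicate 3 held both *Xist* (428 CPM) and the Y-linked *Ddx3y* (20.7 CPM), which no other library did at such levels. In bulk samples, fewer cells of a type and less RNA per cell cannot be told apart.

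The sequences before the start of 3 of these genes are printed because the design turns on a clock factor and because they hold the motif matches found among the members, or stand beside one that does. RefSeq promoter windows (GRCm38.p6) were matched by symbol for 8 of the 10 genes, all but *Cd28* and *Cd93*. The 250 bases before the RefSeq start were searched on both strands. By the gene coordinates deposited with the counts, the windows of *Slamf7* and *Cd38* lay inside the gene and that of *Sdc1* overlapped its start. The motifs were the E-box CACGTG, to which Bmal1 and its partner Clock bind, the D-box TTANGTAA, the RORE core TAGGTCA, and 2 GAAA half-sites with 2 bases between them, bound by IRF factors. The E-box was found in 1 of the 8 windows, that of *Il6ra*, and in 6.02% of the 32851 windows of all genes. The paired half-sites were found in 1 of the 8, that of *Tnfrsf17*, and in 2.98% of all windows. The D-box and the RORE core were in none of the 8, and in 2.06% and 2.23% of all windows. Capitals mark these matches in the sequences, which run 5′ to 3′ on the strand of the gene at chr3:89913197-89913446 (minus strand), chr16:11313559-11313808 (plus strand) and chr11:61126505-61126754 (plus strand).
Il6ra: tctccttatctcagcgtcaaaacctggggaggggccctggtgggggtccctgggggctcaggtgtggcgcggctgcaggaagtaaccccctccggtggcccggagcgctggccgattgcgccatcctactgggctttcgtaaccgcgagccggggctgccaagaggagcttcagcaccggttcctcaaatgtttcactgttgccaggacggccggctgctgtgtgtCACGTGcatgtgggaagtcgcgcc
Tnfrsf17: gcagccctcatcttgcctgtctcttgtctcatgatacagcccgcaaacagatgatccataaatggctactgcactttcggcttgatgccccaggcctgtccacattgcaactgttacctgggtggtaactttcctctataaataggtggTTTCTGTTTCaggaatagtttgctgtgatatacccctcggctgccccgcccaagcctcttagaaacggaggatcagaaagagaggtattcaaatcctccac
Tnfrsf13b: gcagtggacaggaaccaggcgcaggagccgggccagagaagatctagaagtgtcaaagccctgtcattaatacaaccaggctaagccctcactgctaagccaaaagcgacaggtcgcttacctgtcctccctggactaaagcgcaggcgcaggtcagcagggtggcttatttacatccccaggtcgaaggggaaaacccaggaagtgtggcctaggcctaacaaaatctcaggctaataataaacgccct
The E-box of *Il6ra* began 24 bases before the start, and the match of *Tnfrsf17*, read here as the reverse complement TTTCTGTTTC, began 101 bases before it. The window of *Tnfrsf13b*, the other APRIL receptor, held none of the 4 motifs. A match of letters is a description and not a site of binding.

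Scaled to gene length, the 10 genes spanned a wide range. *Sdc1* had the highest mean level over the 21 mice at 151 CPM per kb, followed by *Tnfrsf13b* (116 CPM per kb) and *Tnfrsf17* (109 CPM per kb). *Slamf7* followed at 60.2 CPM per kb, then *Cd93* (23.7 CPM per kb) and *Tnfrsf13c* (21.7 CPM per kb). The IL-6 receptor chain *Il6st* (6.24 CPM per kb), *Cd28* (4.76 CPM per kb), *Cd38* (2.29 CPM per kb) and *Il6ra* (1.22 CPM per kb) were the lowest. Each gene was higher than the next in this order in all 21 mice, with exceptions for 4 neighbouring pairs whose order changed between mice. *Tnfrsf13b* was above *Tnfrsf17* in 15 of 21 mice, *Cd93* above *Tnfrsf13c* in 14, *Il6st* above *Cd28* in 17 and *Cd38* above *Il6ra* in 20. The first 3 of these pairs differed by less than the spread between mice (mean log2 ratios 0.10, 0.10 and 0.39, SD 0.22, 0.35 and 0.41). Each of these is a level of RNA and not of protein at the surface, and *Sdc1* was in addition the marker on which the cells were sorted.

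**Figure D1:**
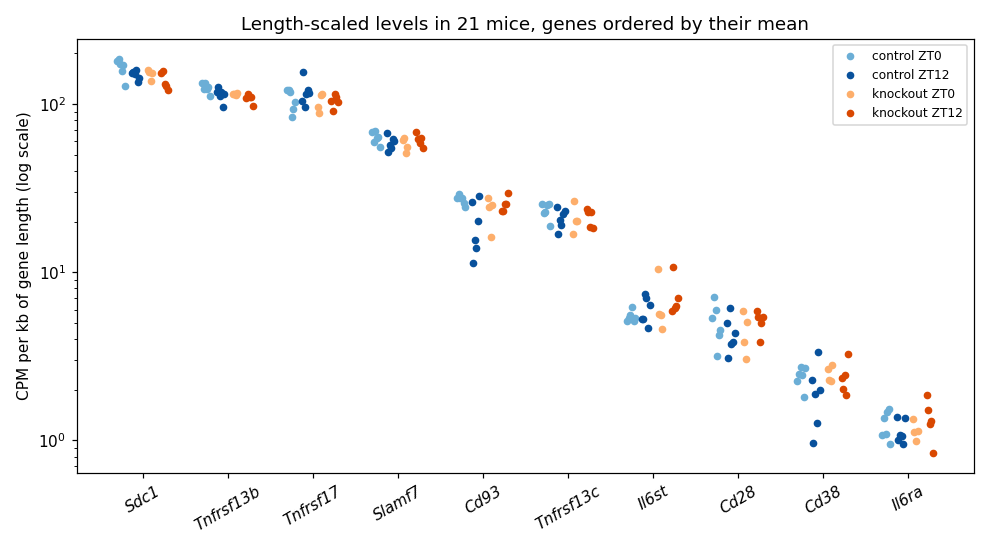
Level of each gene in CPM per kb of gene length (log axis), 1 point per mouse, coloured by group, genes ordered by their mean over 21 mice. The 3 highest genes, Sdc1, Tnfrsf13b and Tnfrsf17, have means of 109 to 151 CPM per kb, and Il6ra lies lowest at a mean of 1.22 CPM per kb.

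None of the 10 genes was called between times or genotypes at an adjusted p under 0.05. In control mice, 0 of 10 were called between ZT12 and ZT0 by edgeR and 0 by DESeq2, where edgeR called 1.73% and DESeq2 8.5% of all genes tested, and 1 of 10, *Cd93*, was under 0.05 before adjustment, against 18.1% of all genes. In knockout mice 0 of 10 were called by either tool and 0 of 10 were under 0.05 before adjustment (of all genes, 0% called by edgeR, 0.319% by DESeq2 and 8.01% under 0.05 before adjustment). For the interaction, which tests whether the time difference itself differed between genotypes, 0 of 10 were called by either tool and 1, again *Cd93*, was under 0.05 before adjustment (of all genes, 0% called by edgeR, 0.0279% by DESeq2 and 10.8% under 0.05 before adjustment). Between genotypes 0 of 10 were called by either tool at ZT0 (of all genes, 0.00987% by edgeR and 0.0247% by DESeq2) and at ZT12 (0.0148% and 0.0574%), with 0 and 1 gene, *Cd93*, under 0.05 before adjustment (4.9% and 8.83% of all genes). For all 10 genes the mice of the groups overlapped in each of the 4 comparisons of groups, as did those of all but 1.6%, 2.63%, 0.977% and 0.38% of all genes. The median log2 fold change of the 10 genes between ZT12 and ZT0 in control mice was -0.14, beside 0.01 over all genes tested. Of the 10, 8 were below 0, beside 9987 of all 20256 genes. In knockout mice the median was 0.06, beside 0.01, and 3 of the 10 were below 0, beside 9904 of all 20256. Whether the 10 genes shift as a set was not tested.

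**Figure D2:**
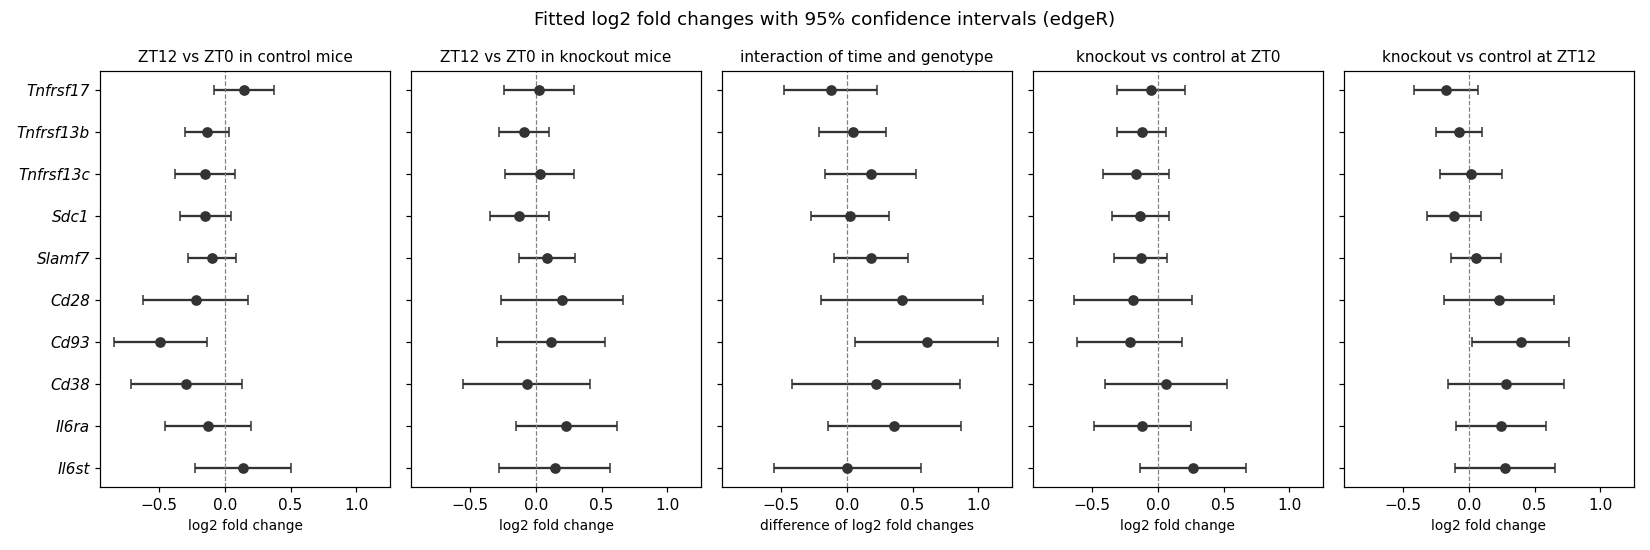
Fitted log2 fold change of each gene (points) with its 95% confidence interval (bars) in the 5 comparisons, the interaction being the difference of log2 fold changes. The intervals cross 0 except for Cd93, which lies below 0 in control mice (-0.49) and above 0 in the interaction (0.61) and between genotypes at ZT12 (0.39).

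**Figure D3:**
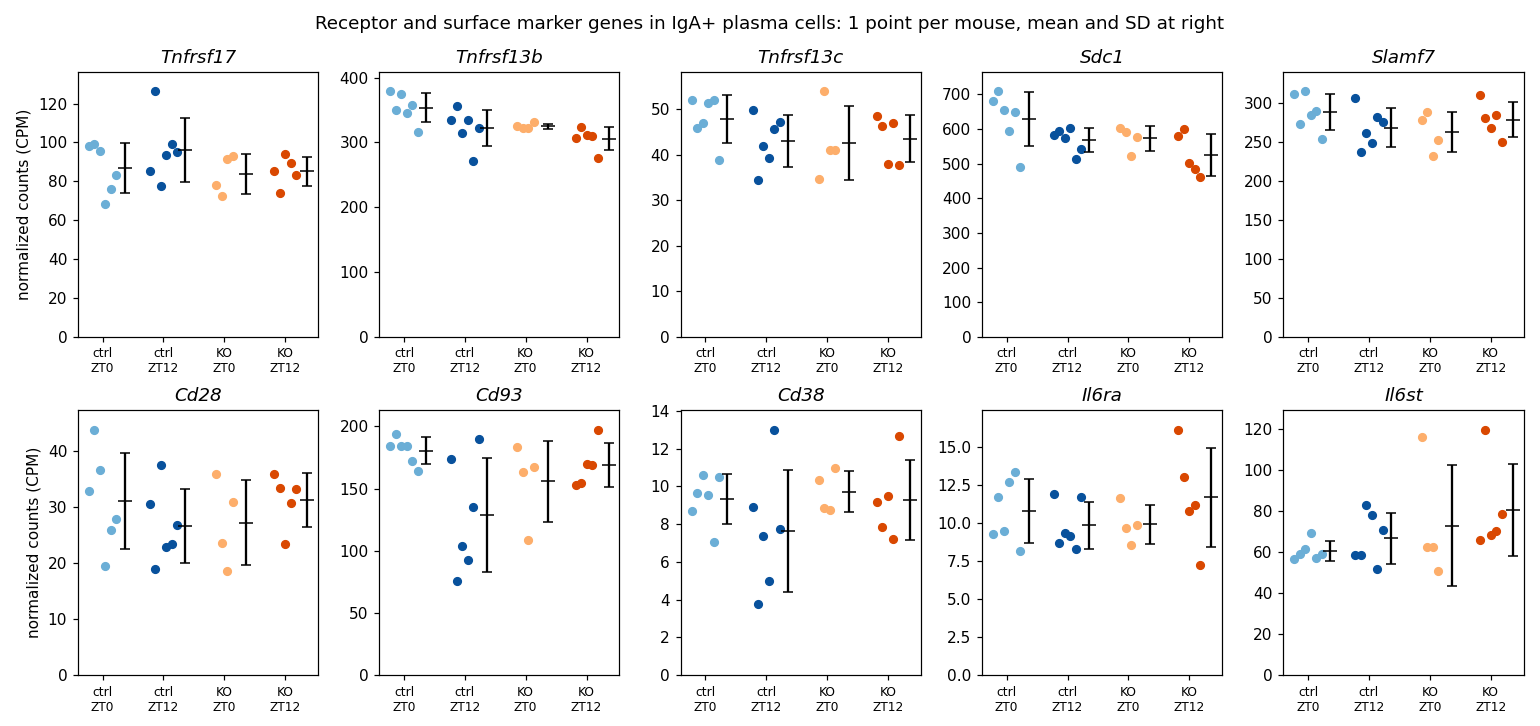
Normalized counts (CPM) of each gene in every mouse by group (ctrl, control; KO, knockout), with the mean and SD at the right of each group. The 4 groups overlap for each gene, and Cd93 has its 4 lowest control values at ZT12.

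Among the APRIL and BAFF receptors, *Tnfrsf17* (chr16, 11313812 to 11320074, all gene coordinates in GRCm38) encodes BCMA, the receptor on which PC survival in the bone marrow depends most. It ranged from 68.6 to 99.2 CPM in control mice at ZT0 (median 89.6) and from 77.7 to 126 CPM at ZT12 (median 94.4). Knockout mice had 78.1, 72.3, 91.7 and 93.2 CPM at ZT0 and, at ZT12, 85.3, 73.9, 93.8, 89.4 and 83.1 CPM. All 4 groups overlapped, and the highest value, in control ZT12 replicate 2, came from the library with the largest share of immunoglobulin counts (63.6%). The log2 fold change between ZT12 and ZT0 was 0.15 (SE 0.11, adjusted p = 0.515) in control mice and 0.02 (SE 0.13, adjusted p = 0.985) in knockout mice, with 95% confidence limits of -0.09 and 0.38, and of -0.25 and 0.29. The direction in control mice turned with scaling, to -0.09 when only library size was used, and the value was 0.053 without control ZT12 replicate 2.

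*Tnfrsf13b* (chr11, 61126755 to 61149372), encoding TACI, which binds both APRIL and BAFF, varied least of the 10 genes between mice of a group. It ranged from 316 to 379 CPM in control mice at ZT0 (median 354) and from 272 to 356 CPM at ZT12 (median 328). At ZT0 the knockout mice stood at 325, 323, 322 and 331 CPM, against 307, 323, 311, 310 and 276 CPM at ZT12. The ZT0 knockout mice thus lay within 10 CPM of each other, and the lowest value at ZT12 in each genotype belonged to replicate 5, the libraries highest in epithelial markers. The log2 fold change between ZT12 and ZT0 was -0.14 (SE 0.08, adjusted p = 0.382) in control mice and -0.09 (SE 0.09, adjusted p = 0.838) in knockout mice, and without both of those libraries -0.09 and -0.05. Taken alone, the exact permutation test over mice gave p = 0.0317 for time in knockout mice and p = 0.0429 for genotype at ZT0, which were 2 of the 3 values under 0.05 among 40 such tests, without adjustment. Without knockout ZT0 replicate 3 the exact permutation p-values were 0.0893 and 0.0833, and without both libraries high in epithelial markers that for time was 0.0857. Of the 12 epithelial markers listed, 11 were tested and 1 of those had a mean under 1 CPM, and their part in the level of *Tnfrsf13b* was not tested.

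*Tnfrsf13c* (chr15, 82221743 to 82224369), encoding the BAFF receptor, ranged from 38.7 to 52.1 CPM in control mice at ZT0 (median 49.2) and from 34.5 to 49.9 CPM at ZT12 (median 43.7). Values in knockout mice were 34.6, 53.9, 41.0 and 41.1 CPM (ZT0) and 48.6, 46.4, 38.1, 46.9 and 37.7 CPM (ZT12). The knockout mice at ZT0 spanned nearly the whole range of the 21 mice. Log2 fold changes between ZT12 and ZT0 were -0.15 (SE 0.11, adjusted p = 0.485) in control mice and 0.03 (SE 0.13, adjusted p = 0.975) in knockout mice. The control value was -0.094 without control ZT12 replicate 2, and the knockout value ran from -0.063 (without ZT0 replicate 1) to 0.15 (without ZT0 replicate 2). The markers of B cells before the PC stage were low, with 5 of the 9 listed under 1 CPM on average (*Pax5* 0.54 CPM, *Cd22* 0.88 CPM).

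The ratio of *Tnfrsf17* to *Tnfrsf13b* within a library, per kb of length, does not depend on library size. It ranged from 0.69 to 0.99 in control mice at ZT0 and from 0.86 to 1.27 at ZT12, a difference in mean log2 ratio of 0.28 (two-sided exact permutation test p = 0.0649, adjusted p = 0.519 over 8 tests of ratios). In knockout mice it ranged from 0.78 to 0.99 at ZT0 and from 0.80 to 1.05 at ZT12 (difference 0.12, exact permutation p = 0.286, adjusted p = 0.572). The ranges overlapped at both genotypes, and none of the 8 tests of ratios passed an adjusted p of 0.05.

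*Sdc1* (chr12, 8771323 to 8793715), the heparan sulfate proteoglycan that marks PCs, ranged from 489 to 708 CPM in control mice at ZT0 (median 652) and from 513 to 603 CPM at ZT12 (median 577). Knockout mice had 604, 591, 521 and 578 CPM at ZT0 and, at ZT12, 579, 601, 503, 484 and 462 CPM. Of the control mice at ZT0, 4 of 6 were above every other mouse of the study, and replicate 6, at 489 CPM, was below every control mouse at ZT12. Log2 fold changes between ZT12 and ZT0 were -0.15 (SE 0.09, adjusted p = 0.414) in control mice and -0.13 (SE 0.11, adjusted p = 0.793) in knockout mice, with a difference between them of 0.02 (SE 0.14, adjusted p = 0.977). The sort on CD138 protein sets a floor to which cells enter, so that cells with little syndecan-1 at their surface were not sampled.

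*Slamf7* (chr1, 171632403 to 171653035), a receptor of the SLAM family that binds itself on neighbouring cells, ranged from 255 to 315 CPM in control mice at ZT0 (median 288) and from 237 to 307 CPM at ZT12 (median 269). At ZT0 the knockout mice stood at 279, 288, 233 and 253 CPM, against 311, 282, 268, 286 and 250 CPM at ZT12. Its log2 fold changes between ZT12 and ZT0 were -0.10 (SE 0.09, adjusted p = 0.582) in control mice and 0.08 (SE 0.10, adjusted p = 0.87) in knockout mice, with values of -0.066 without control ZT12 replicate 2 and 0.030 without knockout ZT0 replicate 3. The 95% confidence limits in control mice, -0.28 and 0.08, correspond to folds of 0.82 and 1.06. An antisense gene, *Gm37787*, overlaps *Slamf7* and held 739 counts in all libraries against 96586 for *Slamf7*, and whether reads were counted by strand is not given in the sources used here.

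*Cd28* (chr1, 60716800 to 60773359), best known as the costimulatory receptor of T cells and used by PCs for survival through CD80 and CD86, ranged from 19.5 to 43.8 CPM in control mice at ZT0 (median 30.3) and from 18.9 to 37.4 CPM at ZT12 (median 25.1). Values in knockout mice were 35.8, 23.7, 18.5 and 30.9 CPM (ZT0) and 35.9, 33.3, 23.4, 30.7 and 33.2 CPM (ZT12). The spread between mice of a group was wide, with a coefficient of variation of 27.5% in control mice at ZT0. The log2 fold change between ZT12 and ZT0 was -0.22 (SE 0.19, adjusted p = 0.576) in control mice and 0.20 (SE 0.22, adjusted p = 0.852) in knockout mice, a difference of 0.42 with 95% confidence limits of -0.19 and 1.04 (adjusted p = 0.599). The control value lay between -0.34 (without ZT12 replicate 3) and -0.095 (without ZT0 replicate 2), and the knockout value between 0.056 (without ZT0 replicate 3) and 0.36 (without ZT0 replicate 1). Markers of T cells were near 0: *Cd3d*, *Cd3e* and *Cd3g* averaged 0.21, 0.42 and 0.38 CPM, 8 of the 10 listed were under 1 CPM, and the sum ran from 12.7 to 32.2 CPM, most of it *Cd4* (15.6 CPM on average). Medians of that sum were 19.2, 18.3, 29.3 and 23.6 CPM in the control ZT0, control ZT12, knockout ZT0 and knockout ZT12 libraries.

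*Cd93* (chr2, 148436640 to 148443563) encodes a C-type lectin-like surface protein that PCs acquire as they mature and need for their upkeep in the bone marrow, and it was the gene of the 10 with the largest difference between times in control mice. It ranged from 164 to 194 CPM in control mice at ZT0, a mean of 180.5 ± 10.7 CPM (SD, n = 6). At ZT12 it was 174, 75.7, 103, 92.8, 135 and 190 CPM in replicates 1 to 6, a mean of 128 ± 45.9 CPM (SD, n = 6). In control mice at ZT12, 4 of the 6 were thus below every control mouse at ZT0, and the other 2 lay within the ZT0 range. Knockout mice had 183, 163, 109 and 168 CPM at ZT0 and, at ZT12, 153, 154, 170, 169 and 197 CPM. Knockout ZT0 replicate 3, at 109 CPM, stood below the other 8 knockout mice.

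The log2 fold change of *Cd93* between ZT12 and ZT0 in control mice was -0.49 (SE 0.17, 95% confidence limits -0.85 and -0.14), or 0.71-fold. It did not pass the adjusted threshold (edgeR p = 0.00896, adjusted p = 0.144; DESeq2 adjusted p = 0.0571), and the exact permutation test over mice gave p = 0.0346 for this gene alone. Without control ZT12 replicate 1 the log2 fold change was -0.60 (edgeR adjusted p = 0.046) and without replicate 6 it was -0.63 (edgeR adjusted p = 0.031). These were the 2 mice at ZT12 that were not low, so leaving either out widens the difference. Without control ZT12 replicate 2, the lowest mouse, the log2 fold change was -0.38. In knockout mice it was 0.12 (SE 0.20, adjusted p = 0.918), and without knockout ZT0 replicate 3, the library with both *Xist* and *Ddx3y*, it was -0.02 (SE 0.20). The interaction was 0.61 (SE 0.26, 95% confidence limits 0.06 and 1.15, adjusted p = 0.449), and without that library 0.47 (SE 0.26, adjusted p = 0.826). The difference between genotypes was -0.21 (SE 0.19, adjusted p = 0.931) at ZT0 and 0.39 (SE 0.18, adjusted p = 0.562) at ZT12. None of these differences in *Cd93* passed the adjusted threshold with all libraries included.

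The 5 libraries lowest in *Cd93* were also the 5 highest in *Fos*, an immediate early gene. They were control ZT12 replicates 2, 3, 4 and 5 and knockout ZT0 replicate 3, with *Cd93* from 75.7 to 135 CPM against 153 to 197 CPM in the other 16, and *Fos* from 767 to 1421 CPM against 135 to 547 CPM. Of these 5, 4 also had the 4 largest shares of immunoglobulin counts (59.1% to 63.6%), while control ZT12 replicate 3 had 53.4%. With that share as a covariate in the fit, the log2 fold change of *Cd93* between ZT12 and ZT0 in control mice was -0.11 (SE 0.16, adjusted p = 0.904) and the interaction was 0.21 (SE 0.22, adjusted p = 1). In control mice the share ran from 51.5% to 53.4% at ZT0 and from 53.4% to 63.6% at ZT12. These ranges met only at their ends, so that a fit with this covariate separates the share from time of day poorly. *Fos* and its relation to *Cd93* were chosen after their values were seen, and the part of *Fos* or of the immunoglobulin share in the result was not tested. Among markers of endothelial cells, which carry CD93, *Kdr* and *Tek* averaged 0.03 and 0.04 CPM and *Emcn* had no count. Of the 8 endothelial markers tested, 6 were under 1 CPM on average. The exceptions were *Pecam1* (33.4 CPM) and *Cdh5* (2.53 CPM, and at least 0.67 CPM in every library). The sum of endothelial markers, most of it *Pecam1*, had medians of 43.0 and 30.2 CPM in control mice at ZT0 and ZT12, and 37.8 and 35.4 CPM in knockout mice. Myeloid markers, whose cells can also carry CD93, summed to 19.2 to 88.4 CPM in the 5 libraries lowest in *Cd93* and to 38.3 to 122 CPM in the others. The part of endothelial or myeloid cells in the level of *Cd93* was not tested.

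**Figure D4:**
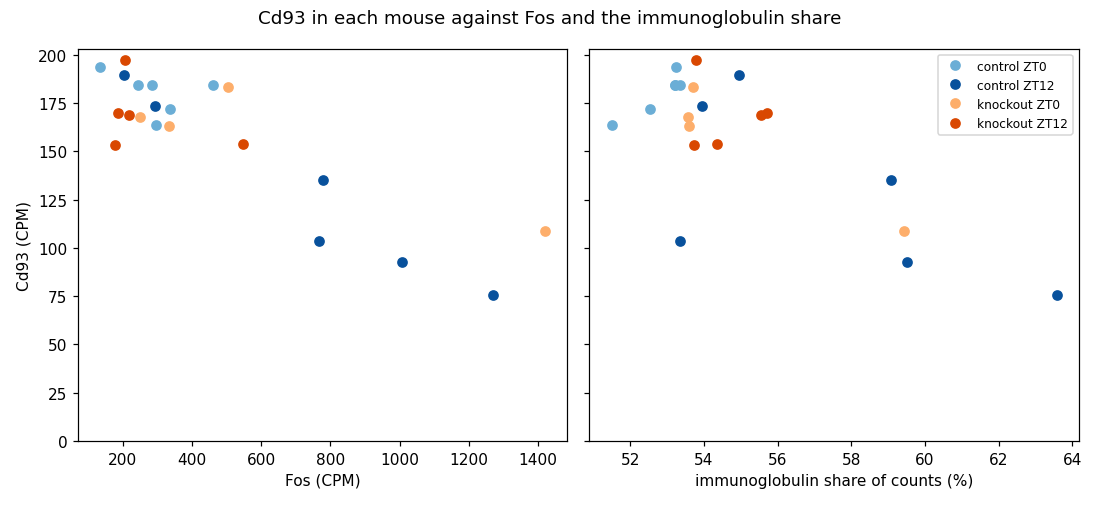
Cd93 (CPM) in each mouse against Fos (CPM, left) and against the share of counts on immunoglobulin genes (percent, right), coloured by group. The 5 mice with Cd93 of 135 CPM or less, 4 control mice at ZT12 and 1 knockout mouse at ZT0, have the 5 highest Fos values, and 4 of them the 4 highest immunoglobulin shares.

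*Cd38* (chr5, 43868553 to 43912375), an ectoenzyme that consumes NAD, was low and the least precisely counted of the 10 genes, with 62 to 221 counts per library, where 62 counts have 95% Poisson limits of 47.5 and 79.5 that cover counting error only. It ranged from 7.04 to 10.6 CPM in control mice at ZT0 (median 9.60) and from 3.77 to 13.0 CPM at ZT12 (median 7.56). At ZT0 the knockout mice stood at 10.3, 8.87, 8.74 and 10.98 CPM, against 9.19, 7.85, 9.48, 7.21 and 12.7 CPM at ZT12. The 2 highest values of all mice, 13.0 and 12.7 CPM, were in the 2 libraries highest in epithelial markers, and the 2 lowest, 3.77 and 4.97 CPM, were in the 2 libraries lowest in *Cd93*. The log2 fold change between ZT12 and ZT0 in control mice was -0.29 (SE 0.20, adjusted p = 0.464), and without both libraries high in epithelial markers it was -0.51 (SE 0.18, adjusted p = 0.153). It was -0.15 without control ZT12 replicate 2. In knockout mice it was -0.07 (SE 0.24, adjusted p = 0.964).

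*Il6ra* (chr3, 89864059 to 89913196), the chain that binds IL-6 and the only gene of the 8 with an E-box in the window printed above, was the lowest per kb. It ranged from 8.18 to 13.4 CPM in control mice at ZT0 (median 10.6) and from 8.28 to 11.9 CPM at ZT12 (median 9.24). Values in knockout mice were 11.7, 9.69, 8.54 and 9.89 CPM (ZT0) and 16.2, 13.0, 10.8, 11.2 and 7.27 CPM (ZT12). The knockout mice at ZT12 held both the highest and the lowest value of all 21. The log2 fold change between ZT12 and ZT0 was -0.13 (SE 0.16, adjusted p = 0.716) in control mice and 0.23 (SE 0.19, adjusted p = 0.769) in knockout mice. Leaving out control ZT0 replicate 5 brought the first to -0.061 and leaving out control ZT0 replicate 6 to -0.20, while the second was 0.076 without knockout ZT12 replicate 1 and 0.35 without knockout ZT12 replicate 5.

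*Il6st* (chr13, 112464070 to 112510086), encoding the signalling chain gp130 that IL-6 shares with related cytokines, ranged from 56.6 to 69.3 CPM in control mice at ZT0 (median 59.0) and from 51.5 to 82.6 CPM at ZT12 (median 64.4). Knockout mice had 116, 62.3, 62.2 and 50.8 CPM at ZT0 and, at ZT12, 65.7, 119, 68.3, 70.2 and 78.3 CPM. A single library in each knockout group stood apart, ZT0 replicate 1 and ZT12 replicate 2, above the next highest mouse of the study at 82.6 CPM. Between genotypes the log2 fold change was 0.27 (SE 0.19, adjusted p = 0.926) at ZT0 and 0.27 (SE 0.18, adjusted p = 0.658) at ZT12. Without the library that stood apart it was -0.05 at ZT0 and 0.09 at ZT12. Between times in control mice it was 0.14 (SE 0.18, adjusted p = 0.724), which turned to -0.06 with library size only and was 0.068 without control ZT12 replicate 3. Between times in knockout mice it was 0.14 (SE 0.20, adjusted p = 0.895), and it ran from -0.044 without ZT12 replicate 2 to 0.46 without ZT0 replicate 1. Per kb, *Il6st* was 3.17 to 8.40 times *Il6ra* in the 21 mice, and this ratio did not pass an adjusted p of 0.05 in any of the 4 comparisons of groups (smallest adjusted p = 0.52, exact permutation tests).

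After the mean of each group was subtracted, the levels of 2 of the 45 pairs of genes were correlated over the 21 mice at an adjusted p under 0.05 (Pearson, 100000 permutations within groups, adjusted over the 45 pairs). *Tnfrsf13b* and *Sdc1* had r = 0.70 (permutation p = 0.00028, adjusted p = 0.0126) and rho = 0.61 (permutation p = 0.00528, adjusted p = 0.0792). *Tnfrsf13c* and *Slamf7* had r = 0.71 (permutation p = 0.00165, adjusted p = 0.0371) and rho = 0.79 (permutation p = 0.00022, adjusted p = 0.0099). Without the 2 mice farthest from the median of the first gene, r was 0.56 and 0.63. In the 10 libraries high in *Xist* r was 0.64 for both pairs, and in the 11 low in *Xist* it was 0.87 and 0.98. Without knockout ZT0 replicate 3 it was 0.71 and 0.75. By rho, 1 of the 45 pairs passed, *Tnfrsf13c* with *Slamf7*. The pair with the largest r in absolute value, *Tnfrsf13b* with *Cd38*, did not pass. It had r = -0.71 (permutation p = 0.00394, adjusted p = 0.0591) and rho = -0.40 (permutation p = 0.115, adjusted p = 0.351). Of the 45 pairs, 31 had r above 0. Scaling mattered here, since with library size only 15 pairs passed and the median r was 0.51 in place of 0.17, while with immunoglobulin genes removed 2 pairs passed.

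**Figure D5:**
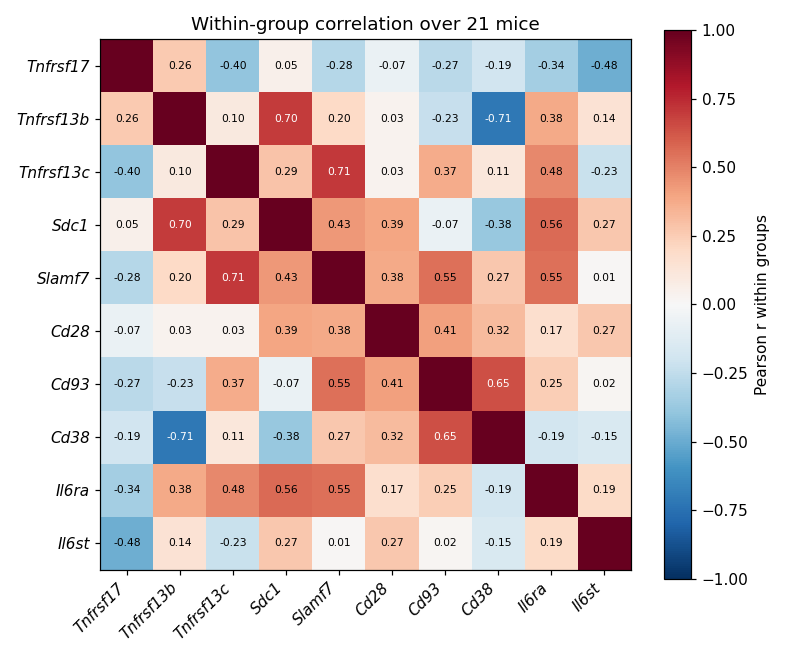
Pearson r between the levels of each pair of genes (log2 CPM) over 21 mice after subtraction of group means, from blue (-1) to red (1). The pairs Tnfrsf13b with Sdc1 (0.70) and Tnfrsf13c with Slamf7 (0.71) are the highest, and Tnfrsf13b with Cd38 (-0.71) is the lowest.

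Against the immunoglobulin share of the library, also after subtraction of group means, 2 of the 10 genes had an adjusted p under 0.05 for r and none for rho. *Tnfrsf17* had r = 0.64 (permutation p = 0.00232, adjusted p = 0.0116) and rho = 0.55 (permutation p = 0.00768, adjusted p = 0.0768), and *Cd28* had r = -0.63 (permutation p = 0.0017, adjusted p = 0.0116) and rho = -0.54 (permutation p = 0.0168, adjusted p = 0.084). Without the 2 mice farthest from the median share, r was 0.45 and -0.47, with the same sign as before. In libraries high and low in *Xist* r was 0.97 and 0.31 for *Tnfrsf17*, and -0.86 and -0.74 for *Cd28*. *Cd93* had r = -0.68 (permutation p = 0.0403, adjusted p = 0.134) and rho = -0.46 (permutation p = 0.122, adjusted p = 0.203). Immunoglobulin counts and TMM factors come from the same libraries, so that these values also carry the normalization.

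The genes most like *Tnfrsf13b* over all 21 mice, by Pearson r of log2 CPM among 8176 genes with a mean of at least 5 CPM, were *Sdc1* (r = 0.81), *Ghdc* (r = 0.79) and *Coro2b* (r = 0.78). Those most like *Sdc1* were *Plxnc1* (r = 0.84), *Crybb1* (r = 0.82) and *Tnfrsf13b* (r = 0.81), and those most like *Tnfrsf17* were *Bckdk* (r = 0.82), *Gpr160* (r = 0.81) and *Mtch1* (r = 0.80). Each of the pair *Tnfrsf13b* and *Sdc1* was thus among the 3 nearest genes of the other. For *Cd93*, searched after its values were seen, the nearest genes were *Usp25* (r = 0.96) and *Vps13d* (r = 0.95). These are descriptions over libraries that share depth and composition.

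Of 67 genes listed as ligands, signal adaptors, sheddases, cytokines and partners of the 10, 64 were tested. In control mice between ZT12 and ZT0, 0 rose and 2 fell at an adjusted p under 0.05 (edgeR), beside 1.73% of all genes, and 20 of 64 were under 0.05 before adjustment, beside 18.1% of all genes. *Extl3*, which starts the heparan sulfate chains carried by syndecans, fell from 28.1 ± 2.36 to 21.4 ± 3.20 CPM (SD, n = 6 in each group, log2 fold change -0.39, SE 0.10, adjusted p = 0.0384). *Pecam1* (CD31), an adhesion protein that binds CD38, fell from 39.4 ± 2.84 to 27.6 ± 6.24 CPM (SD, n = 6 in each group, log2 fold change -0.51, SE 0.14, adjusted p = 0.0494). Both calls were close to the threshold and depended on which libraries were included. Neither was made without control ZT0 replicates 1, 2, 3, 4 or 6 or control ZT12 replicates 2, 3, 4 or 5, each left out alone. The call of *Pecam1*, which is also the main gene of the endothelial list above, was lost in addition without control ZT0 replicate 5, knockout ZT0 replicates 1 or 2, or knockout ZT12 replicates 1, 3, 4 or 5. With the immunoglobulin share as a covariate, with only the 2 control groups in the fit, or without both libraries high in epithelial markers, 0 of the 64 were called. In knockout mice their log2 fold changes were -0.01 (SE 0.11, adjusted p = 0.993) for *Extl3* and -0.09 (SE 0.16, adjusted p = 0.914) for *Pecam1*. In the other 4 comparisons 0 of the 64 were called, with 8, 8, 3 and 6 under 0.05 before adjustment in knockout mice, for the interaction, and between genotypes at ZT0 and at ZT12. Over all genes those shares were 8.01%, 10.8%, 4.9% and 8.83%.

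The remaining genes of this list did not pass the adjusted threshold, and those with the smallest p-values are given as values. Among the signal adaptors of BCMA and TACI, the ubiquitin ligase *Birc3* (cIAP2) had a log2 fold change of -0.34 (SE 0.10, adjusted p = 0.0708) in control mice and -0.33 (SE 0.11, adjusted p = 0.548) in knockout mice. *Traf2* had an interaction of -0.70 (SE 0.28, adjusted p = 0.442), and *Mcl1*, the survival protein downstream of BCMA, averaged 595 CPM with a log2 fold change of 0.20 (SE 0.09, adjusted p = 0.261) in control mice. Of the ligands, *Tnfsf13* (APRIL) had 29 counts in all 21 libraries and *Tnfsf13b* (BAFF) 387. In the SLAM family, *Cd84* had a log2 fold change of 0.88 (SE 0.29, adjusted p = 0.117) in control mice and an interaction of -1.36 (SE 0.44, adjusted p = 0.442). Among the genes of IL-6 signalling, the inhibitor *Socs1* had a log2 fold change of 0.75 (SE 0.32, adjusted p = 0.209) in control mice, and *Lifr* had 41 counts in all libraries (log2 fold change 2.55, SE 1.18, adjusted p = 0.253). The interaction was 0.66 (SE 0.23, adjusted p = 0.442) for *Pik3r1*, a subunit of the kinase that acts below CD28, 0.38 (SE 0.15, adjusted p = 0.442) for *Extl3*, 1.14 (SE 0.43, adjusted p = 0.442) for *Ext1*, which lengthens heparan sulfate, and -0.41 (SE 0.18, adjusted p = 0.449) for *Psenen*, a subunit of the gamma-secretase that sheds BCMA.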

How the data were processed

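The authors isolated RNA from IgA+ CD138+ PCs of single mice, sequenced poly-A selected libraries (paired reads, Illumina NovaSeq) and deposited raw counts of reads per gene. The aligner, counter, strand setting and genome build are not given in the sources used here. The coordinates of all 10 genes equal those of GENCODE M21 (GRCm38). The gene lengths are those deposited with the counts.

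A gene was kept from 10 counts over all libraries on, and edgeR 4.0.16 in R 4.3.3 (TMM, robust quasi-likelihood, means of the 4 groups) gave fold changes, standard errors and Benjamini-Hochberg adjusted p-values over 20256 genes. DESeq2 1.42.0 was an alternative, with its default filter. Levels were log2(CPM + 0.5) for permutation tests, two-sided and over every split of the mice, and for correlations (100000 permutations within groups). The mouse was the unit of every test. In edgeR the spread between mice was moderated across genes, while each permutation test used only the levels under test. The fit was tested on simulated counts. Among 46 pairs of libraries within groups, none agreed within sampling noise (chi-square per gene 29.5 to 242). At these depths single genes such as *Cd38* carry counting error that intervals cover, and reads carry no molecular identifiers.

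The summed level of the markers of B cells before the PC stage is not reported here. The members and the lists were chosen with earlier results of these data known. All 10 genes are named. Of the list of 67 genes, those called and, for time in control mice and for the interaction, the 3 with the smallest p in each direction are named, and for *Tnfrsf17*, *Tnfrsf13b* and *Sdc1* the 3 most similar genes. *Tnfsf13*, *Tnfsf13b*, *Mcl1* and the likeness of *Cd93* were added after values were seen. Other alternatives were DESeq2 size factors, no filter, library size only, immunoglobulin genes removed, filterByExpr, a threshold of 0.01, only the groups compared, the replicate number as a block, the immunoglobulin share as a covariate and each library left out. Chosen after seeing the data were the *Xist* level as a covariate, leaving out both libraries highest in epithelial markers, and the alternatives for single permutation tests and correlations.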

Additional observations from a re-analysis of the deposited data

Results flagged for a closer look

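*Il6st* in knockout ZT12 replicate 2, at 119.4 CPM, stood farther from the other 4 mice of its group (65.7 to 78.3 CPM) than Dixon's 95% limit allows. It was the only such value among 48 tests of the 10 genes and both ratios by group. Chance gives about 1 such value in 20 tests, so that 1 among 48 is no more than chance gives. *Il6st* in knockout ZT0 replicate 1 lay just inside the limit. Its distance to the next mouse was 0.8235 of the range of its group, against a limit of 0.829.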

How the results depend on the processing

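With all libraries included, 0 of the 10 genes were called in any of the 5 comparisons under any alternative. Of 540 log2 fold changes of the 10 genes under alternatives other than leaving out single libraries, 514 kept their direction and side of the threshold and 26 reversed, and of 1050 with single libraries left out 1011 did, 37 reversed and 2 passed the threshold. The cause was not tested for any of these. The reversed values follow. With library size only, which moved the median of all genes from 0.01 to -0.20 in control mice and from 0.01 to 0.19 in the interaction and from -0.01 to 0.12 between genotypes at ZT12, they were *Tnfrsf17* -0.090 and *Il6st* -0.057 (time, control), *Tnfrsf17* -0.00055 (time, knockout) and 0.089 (interaction), and *Tnfrsf13b* 0.056 and *Sdc1* 0.019 (genotype, ZT12). Of the genes called in control mice 10.8% were then higher, in place of 54.9%. With the immunoglobulin share as a covariate they were *Tnfrsf17* -0.10, *Slamf7* 0.0038, *Cd28* 0.14 and *Il6ra* 0.035 (time, control), *Tnfrsf17* 0.14, *Cd38* -0.077 and *Il6st* -0.15 (interaction), and *Tnfrsf13c* -0.055 and *Slamf7* -0.0092 (genotype, ZT12). For the interaction, *Sdc1* was -0.0016 with DESeq2 and with its size factors, and *Il6st* was -0.021 with either, -8.7e-06 without immunoglobulin genes, -0.014 with filterByExpr, -0.019 with the *Xist* level and -0.050 without both libraries high in epithelial markers. *Tnfrsf13c* at ZT12 was -0.0020 with DESeq2, -0.0015 with its size factors and -0.0031 with the replicate block. The count of genes called for time in control mice (350) was 14 at a threshold of 0.01, 1052 with DESeq2, 38 with only its own groups, 183 with the replicate block, 0 with the immunoglobulin share and 150 without both libraries high in epithelial markers. The 2 listed genes called there became 0 at 0.01, 5 with DESeq2, 1 with its size factors, 7 with library size only, 1 without a filter, 0 with only its own groups, 0 with the block, 0 with the immunoglobulin share, 1 with the *Xist* level and 0 without both libraries. In knockout mice the count of 0 genes became 47 with DESeq2 and 1 without a filter, with the immunoglobulin share or without both libraries. With DESeq2 it became 4 in the interaction, 5 at ZT0 (from 2) and 8 at ZT12 (from 3). With DESeq2 size factors 62.2% of the genes called in control mice were higher. With library size only, 15 pairs of genes were correlated and 6 permutation tests in place of 3 were under 0.05. With single libraries left out, genes called for time ranged from 31 (without control ZT0 replicate 2) to 944 (without control ZT12 replicate 1) in control mice, from 0 to 1 in knockout mice and from 0 to 1 in the interaction, listed genes from 0 to 6, and permutation tests under 0.05 from 1 (without control ZT0 replicate 1, among others) to 8 (without control ZT0 replicate 6). Members called ranged from 0 to 1, the 1 being *Cd93* in control mice (-0.63 to -0.38). Fold changes that crossed 0 were *Tnfrsf17* (-0.057 to 0.069), *Tnfrsf13c* (-0.063 to 0.15), *Cd93* (-0.022 to 0.20), *Cd38* (-0.22 to 0.0083) and *Il6st* (-0.044 to 0.46) for time in knockout mice, *Sdc1* (-0.029 to 0.074) and *Il6st* (-0.18 to 0.32) in the interaction, *Tnfrsf17* (-0.11 to 0.021), *Cd38* (-0.0065 to 0.11) and *Il6st* (-0.048 to 0.42) at ZT0, and *Tnfrsf13c* (-0.047 to 0.060) at ZT12. The replicate numbers were not treated as a pairing, since the sources used here do not say what they share and not every pair passed: 12 of 28 pairs of same-numbered mice had deviations correlated over 0.1 (-0.35 to 0.58) and 7 of 21 mice were most like their own number. The pairs of replicate 1 were all over 0.1 (0.17 to 0.46), and whether some numbers share a batch was not tested. The block called 0 of the 10 genes and neither *Extl3* nor *Pecam1*.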
